A study of Arabidopsis thaliana with 4 samples.

Results

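The calcium signalling genes described here are 25 genes of Arabidopsis thaliana measured in green tissue with and without the trichome regulators GL3 and EGL3. They were chosen by name. A gene belonged to the set when the annotation of the array gave its probe set 1 gene symbol made of a calcium family prefix and a number. The prefixes searched were those of calmodulin-like proteins (CML), calmodulins (CAM), calcium-dependent kinases (CPK and CDPK), calcineurin B-like sensors and their kinases (CBL and CIPK), calmodulin-binding IQD proteins (IQD), cyclic nucleotide-gated channels (CNGC), glutamate receptor-like channels (GLR), calcium pumps (ACA) and cation exchangers (CAX). Of 13355 genes with a probe set of their own, 25 met the rule, and 0 further probe sets read the same genes. They comprised 7 CML, 7 GLR and 11 IQD genes. In RefSeq (assembly TAIR10.1), 166 genes carry such a symbol. The 116 of these in the other 7 families had no probe set with 1 symbol, so calmodulins, kinases, CBL sensors, CNGC channels, pumps and exchangers are not analysed here.

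Calcium signalling in plants works through brief rises of free calcium in the cytosol. Channels, among them those of the GLR family, let calcium in. Sensor proteins with EF-hand loops, such as the CML proteins, bind it and change shape, and their targets pass the signal on. IQD proteins bind calmodulin through IQ motifs, and many of them sit on microtubules or at the plasma membrane. In leaf hairs, or trichomes, calcium sensing meets the cytoskeleton. CML42 takes part in trichome branching and binds KIC, a small EF-hand protein, and KIC in turn binds the microtubule motor encoded by ZWI.

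The data were 4 Affymetrix ATH1 arrays of tissue labelled as green, from plants labelled as 20 days old. The study's text gives the seedlings a younger age, and its methods name green tissue for gl3 egl3 but whole tissue for wild type, without saying which wild type samples are meant. The labels are followed here, and whether any sample held roots is not given. Of these, 2 came from wild type plants of the Ler accession and 2 from gl3 egl3 double mutants, whose titles name no accession. GL3 and EGL3 encode basic helix-loop-helix transcription factors that start trichome formation, and the double mutant forms no leaf trichomes. The mutations are present in all cells of the plant, and the labels name no further treatment for any of the 4 samples. According to the methods, replicates came from separate biological material. The study's results name more replicates per group for this comparison than the 2 used here. In such bulk samples, fewer cells of a type and less RNA per cell cannot be told apart.

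The values are log2 expression values that the authors made with GCRMA, which draws probe sets with little signal to a low value. A mean under 3 over the 4 arrays is called the low end of the scale here. The array medians lay between 4.92 and 4.99. The photosynthesis genes RCA and LHCB4.1, which mark green tissue, lay between 12.48 and 13.39 on all arrays. Of 4 root markers, EXPA7 lay at 2.150 to 2.155 on all arrays and PYK10 between 10.04 and 11.04, while the other 2 and all 3 flower markers were not analysed here. EGL3 lay at 2.299 to 2.306 on all arrays and so gives no check of the genotypes. GL3 was not analysed here. Of the 7 measured trichome markers out of 8 listed, GL2, TTG2, TRY, MYB23 and ETC1 had means at the low end. MYBL2 and CPC, which encode inhibitors of the trichome-initiating complex, differed by -1.41 (SE 0.16) and -1.76 (SE 0.58) between gl3 egl3 and wild type. Their unadjusted limma p was 0.00469 and 0.0673, and their limma adjusted p was 0.249 and 0.591. The wild type arrays of CPC lay apart, at 3.92 and 5.23. Of the 7 markers, 4 had a higher mean in gl3 egl3 and 3 a lower one. The 4 were GL2, TTG2, TRY and MYB23, all at the low end.

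Of the calcium genes, 1 rose in gl3 egl3 at the level used by the study, an unadjusted p under 0.01, and none fell. The gene that rose was CML42, by 1.02 on the log2 scale. The 1 of 25, or 4% of the genes, compares with 1.85% of all 13355 genes in the same direction, and the 0 of 25 that fell with 0.996%. At an unadjusted p under 0.05, 2 genes were higher (CML42 and CML30) and 1 lower (GLR2.7), against 5.17% and 3.11% of all genes. None passed a limma adjusted p of 0.05, and 0 of 22746 probe sets did so on the whole array (0%), while 2117 had an unadjusted p under 0.05. Adjusted in the same way, the methods' t-test gave 0 calls. Means were higher in gl3 egl3 for 9 genes and lower for 16, a tally that was 5 and 20 with arrays centred on their medians and 13 and 12 without wild type replicate 1. The median difference was -0.07 over the 25 genes and 0.01 over all genes. Leaving out wild type replicate 1 brought the median of the 25 genes to 0.00. The median size of a difference, regardless of sign, was 0.18 over the 25 genes and 0.09 over all genes.

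**Figure D1:**
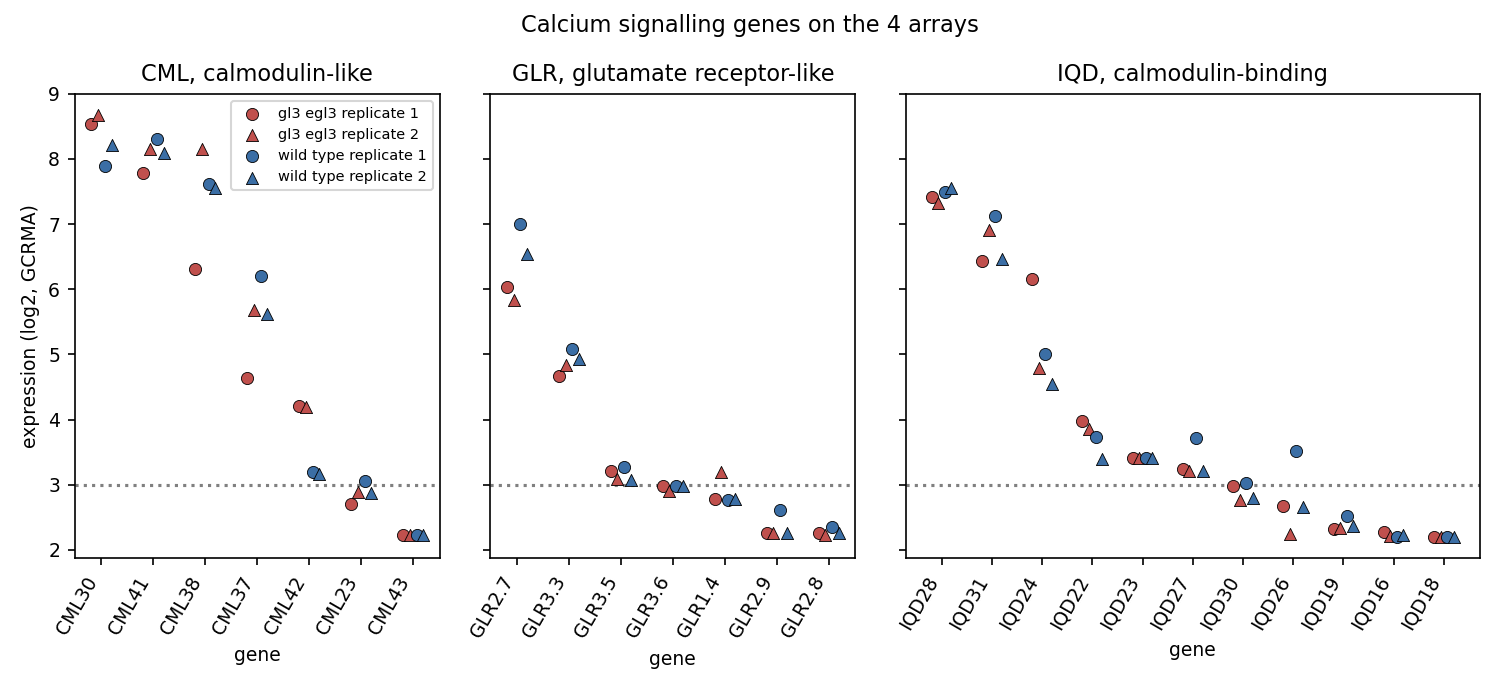
Expression of the 25 calcium signalling genes (log2, GCRMA) on each of the 4 arrays, by gene and family, with red for gl3 egl3 and blue for wild type, circles for replicate 1 and triangles for replicate 2. The dotted line marks 3, and 11 genes have a mean under it; the arrays of CML42 form separate groups at 4.2 and 3.18.

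Much of the set had little signal in this tissue. At the low end lay 11 of the 25 genes (44%), against 42.9% of all genes. A further 6 had a mean between 3 and 5, and 8 had a mean of 5 or more (32%, against 44.6% of all genes). The 8 were CML30, CML37, CML38, CML41, GLR2.7, IQD24, IQD28 and IQD31. Differences at the low end ranged from -0.62 to 0.21 and say little, since GCRMA compresses the spread there. CML43, IQD18 and IQD23 were flat, with a range under 0.02 across the 4 arrays. CML43 lay at 2.23 and IQD18 at 2.19 to 2.20, but IQD23 at 3.41. Of 2898 flat genes on the array, 70 (2.42%) likewise lay at 3 or more. Flat genes reached 9.55, so a narrow range alone does not tell the floor of a probe set from steady expression. A value a little over 3 need not be signal.

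CML42 (AT4G20780) encodes the calmodulin-like sensor linked to trichome branching. Its 2 gl3 egl3 arrays were at 4.21 and 4.19, and its wild type arrays at 3.20 and 3.17. The groups did not overlap, and the replicates of either group lay within 0.04 of each other. The difference was 1.02 with an SE of 0.02 (95% confidence interval 0.93 to 1.10, n = 2 per group), or 2.02-fold. The limma adjusted p was 0.158, and it ranged from 0.133 to 0.399 over the alternatives fitted with limma, while the methods' t-test gave 0.438 after the same adjustment. The unadjusted p was 9.3e-05 in the limma fit and 0.000538 in the methods' t-test. In limma it rose to 0.00117 with the replicate block. It rose to 0.00225 when variances were estimated robustly and allowed to depend on intensity. The SE was 0.12 in that last fit, so the SE of 0.02 depends on how the variance is modelled. With any 1 array left out, the difference stayed between 1.00 and 1.04. With 16 added on the linear scale, an alternative that weighs most on dim genes, it was 0.45. The values of both groups lie in the range in which some probe sets are flat, and whether they stand above the floor of this probe set was not tested. CML42 is also the 1 member that the study lists among genes controlled by GL1 or GL3. These arrays were among those used to draw up that list, so that its presence there is not independent evidence.

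The partners of CML42 in trichomes had means well above the low end, and neither passed an unadjusted p of 0.01. KIC (AT2G46600) encodes the EF-hand protein that binds both CML42 and the kinesin. It was at 11.60 and 11.86 in gl3 egl3 and at 12.12 and 12.07 in wild type. Both mutant arrays lay below both wild type arrays. The difference was -0.37 (SE 0.12, n = 2 per group), with a limma adjusted p of 0.574, and lay between -0.50 and -0.24 with any 1 array left out. ZWI (AT5G65930), the kinesin gene, was at 6.59 and 6.67 in gl3 egl3 and at 6.55 and 6.81 in wild type, so that the groups overlapped. Its difference was -0.05, with a 95% confidence interval from -0.46 to 0.36.

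CML30 (AT2G15680), which encodes a CML protein found in mitochondria, was at 8.53 and 8.68 in gl3 egl3 and at 7.88 and 8.21 in wild type. The groups did not overlap, and the smallest distance between a mutant and a wild type array was 0.32, against 0.33 between the wild type replicates. The difference was 0.56 with an SE of 0.16 (95% confidence interval 0.01 to 1.10) and a limma adjusted p of 0.533. It lay between 0.39 and 0.72 with any 1 array left out. Among the 8 members with a mean of 5 or more, CML30 was the 1 gene whose mutant arrays lay above both wild type arrays. This occurred in 28.9% of the 5960 genes at that level, and the opposite order, seen for GLR2.7 and IQD28, in 17% of them. Over the 25 members, the counts were 6 above and 4 below, against 40.3% and 11.1% of all genes. Of the 6, IQD18 and IQD23 were flat and GLR1.4 was separated by less than 0.01.

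CML37, CML38 and CML41 belong to the sensors whose transcripts respond quickly to stimuli such as wounding or microbes. CML37 (AT5G42380) acts in defence against chewing insects. It was at 4.64 and 5.68 in gl3 egl3 and at 6.20 and 5.62 in wild type. The groups overlapped, and the difference of -0.75 (SE 0.52) had a limma adjusted p of 0.793. It was -0.23 with gl3 egl3 replicate 1 left out and -1.27 with replicate 2 left out.

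CML38 (AT1G76650) acts in the response to low oxygen. It was at 6.31 and 8.15 in gl3 egl3 and at 7.62 and 7.55 in wild type. One mutant array was the lowest of the 4 and the other the highest. The gap of 1.84 between the mutant replicates was reached by 0.319% of the genes with a mean of 5 or more, where the median gap was 0.19. The difference of -0.36 (SE 0.80, limma adjusted p 0.942) therefore rests on single arrays. With gl3 egl3 replicate 2 left out it was -1.28, and with replicate 1 left out it was 0.56. PYK10, a root marker, had the same order of the arrays, at 10.04 and 11.04 in gl3 egl3 and at 10.75 and 10.64 in wild type. EXPA7, the other measured root marker, did not, and lay at 2.150 to 2.155 on all arrays. The part of root tissue in the values of CML38 was not tested. CML39, the next gene to CML38 on chromosome 1, is outside the rule because the array annotation gives its locus alone. Named after its value was seen, it lay at 2.19 to 2.21.

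CML41 (AT3G50770) acts at plasmodesmata, the channels between plant cells, in the response to bacterial flagellin. It was at 7.79 and 8.15 in gl3 egl3 and at 8.31 and 8.09 in wild type, with overlapping groups. The difference was -0.23 (SE 0.18), with a limma adjusted p of 0.793, and lay between -0.41 and -0.05 with 1 array left out.

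Replicate 1 of gl3 egl3 was the lowest array for each of CML37, CML38 and CML41. Another gene of rapid stress responses, the zinc finger gene ZAT10, was at 4.85 and 5.39 in gl3 egl3 and at 6.42 and 5.92 in wild type. Its difference was -1.05 (SE 0.32), with a limma adjusted p of 0.563. The same array was lowest for ZAT10, the 1 measured gene of 13 listed that respond to touch, wounding and cold. WRKY53, a stress and senescence regulator named after its values were seen, was at 6.10 and 6.13 against 8.20 and 8.03. The part of such responses in the values of these CML genes was not tested.

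**Figure D2:**
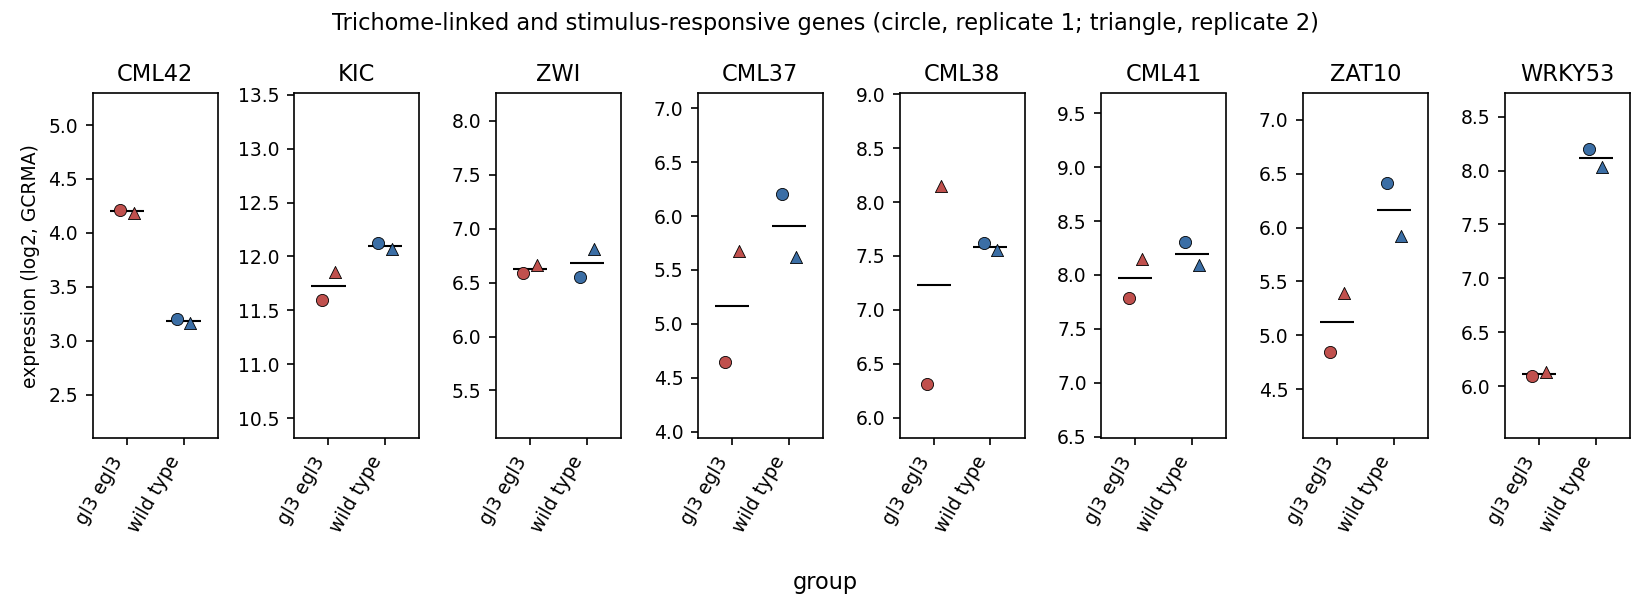
Expression (log2, GCRMA) of CML42, KIC, ZWI, CML37, CML38, CML41, ZAT10 and WRKY53 by group, with circles for replicate 1, triangles for replicate 2 and bars for group means (n = 2); each panel spans the same number of log2 units around its own centre. The replicates of CML42 nearly coincide, while those of CML38 in gl3 egl3 lie at 6.31 and 8.15.

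The remaining sensors lay at the low end. CML23 (AT1G66400), a relative of the touch gene TCH2, was at 2.702 and 2.89 in gl3 egl3 and at 3.06 and 2.87 in wild type. CML43 was flat, as described above.

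Of the 7 glutamate receptor-like channels, 6 had a lower mean in gl3 egl3, with a median difference of -0.07 over the family, and none passed an unadjusted p of 0.01. Of the 6 lower genes, GLR2.8, GLR2.9 and GLR3.6 lay at the low end, and GLR3.5 differed by -0.02. The sign turned for GLR2.9, GLR3.5 and GLR3.6 with 1 array left out. GLR2.7 (AT2G29120) had the largest difference of the family. Together with GLR2.8 and GLR2.9 it acts in calcium entry after microbial patterns are sensed. GLR2.7 was at 6.03 and 5.84 in gl3 egl3 and at 7.0004 and 6.54 in wild type. Both mutant arrays lay below both wild type arrays, by at least 0.51 in log2 units. The difference was -0.83 (SE 0.22, 95% confidence interval -1.59 to -0.08), or 1.78-fold, with an unadjusted p of 0.0393 and a limma adjusted p of 0.493. It ranged from -1.06 to -0.61 when 1 array was left out.

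The 3 genes GLR2.9, GLR2.8 and GLR2.7 follow one another on chromosome 2 with 0 coding genes between them. The means of GLR2.8 and GLR2.9 lay at the low end, that of GLR2.7 above it. GLR2.8 lay between 2.22 and 2.35 on all arrays. GLR2.9 lay at 2.25 on 3 arrays and at 2.62 in wild type replicate 1. GLR2.9 differed by -0.36 when wild type replicate 2 was left out, with an unadjusted limma p of 0.00258. When replicate 1 was left out instead, it differed by 0.00.

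GLR3.3 and GLR3.6 carry the electrical signals that spread from a wounded leaf. GLR3.3 (AT1G42540) was at 4.67 and 4.84 in gl3 egl3 and at 5.08 and 4.93 in wild type. The mutant arrays lay below the wild type arrays by as little as 0.09, and the difference was -0.25 (SE 0.10, limma adjusted p 0.658). GLR3.6 lay between 2.91 and 2.99 on all arrays, at the low end. GLR3.5, a channel with a form in mitochondria, was at 3.22 and 3.08 against 3.27 and 3.07, with overlapping groups. GLR1.4, an amino acid-gated channel with a mean at the low end, lay at 2.77 to 2.78 on 3 arrays and at 3.20 in gl3 egl3 replicate 2. Its difference was 0.21 (SE 0.18), with a limma adjusted p of 0.793. It was 0.42 with gl3 egl3 replicate 1 left out and 0.0030 with replicate 2 left out. ATGLR1.2, outside the rule because of its prefix and named after its values were seen, was at 3.18 on both mutant arrays and at 5.12 and 3.42 in wild type. Its difference of -1.09 (SE 0.74, limma adjusted p 0.793) was -0.24 without wild type replicate 1.

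The IQD family, which encodes calmodulin-binding scaffold proteins, held 11 of the 25 genes. Means were higher in gl3 egl3 for 5 of them and lower for 6, with a median difference of -0.04, and none passed an unadjusted p of 0.01. IQD28 (AT1G14380) was at 7.42 and 7.32 in gl3 egl3 and at 7.49 and 7.56 in wild type. The groups were separated by 0.07, less than the gap of 0.10 between the mutant replicates. Its difference was -0.15 (SE 0.05), with a limma adjusted p of 0.62. IQD31 (AT1G74690) was at 6.43 and 6.91 against 7.13 and 6.47, with overlapping groups and a difference of -0.12 (SE 0.36).

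IQD24 (AT5G07240) had the largest positive difference of the family, 0.70, but it rested on 1 array. The mutant arrays were at 6.16 and 4.80 and the wild type arrays at 5.01 and 4.54, so that replicate 2 of the mutant lay between the wild type arrays. A gap as large as that of its mutant replicates occurred in 1.01% of genes with a mean of 5 or more. The SE was 0.63 and the limma adjusted p 0.793, and leaving out gl3 egl3 replicate 1 or 2 gave a difference of 0.02 or 1.38. IQD22 (AT4G23060), dimmer, was at 3.98 and 3.86 in gl3 egl3 and at 3.73 and 3.398 in wild type. Its groups did not overlap, and the difference was 0.36 (SE 0.15, limma adjusted p 0.695), or between 0.19 and 0.53 with 1 array left out.

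IQD26 and IQD27 showed 1 high array in wild type. IQD26 (AT3G16490) was at 2.67 and 2.24 in gl3 egl3 and at 3.51 and 2.65 in wild type, and its difference of -0.62 (SE 0.42) was -0.19 when wild type replicate 1 was left out. IQD27 (AT1G51960) was at 3.24 and 3.22 in gl3 egl3 and at 3.72 and 3.22 in wild type, and its difference of -0.24 turned to 0.01 with that array left out. With replicate 2 of wild type left out it was -0.49, and over all 4 arrays the SE was 0.22 and the limma adjusted p 0.793. IQD16, IQD18, IQD19 and IQD30 lay at the low end, with differences from -0.12 to 0.03. The related gene iqd32, written in lower case in the annotation and named after its values were seen, was at 7.48 and 7.69 against 7.50 and 7.88.

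**Figure D3:**
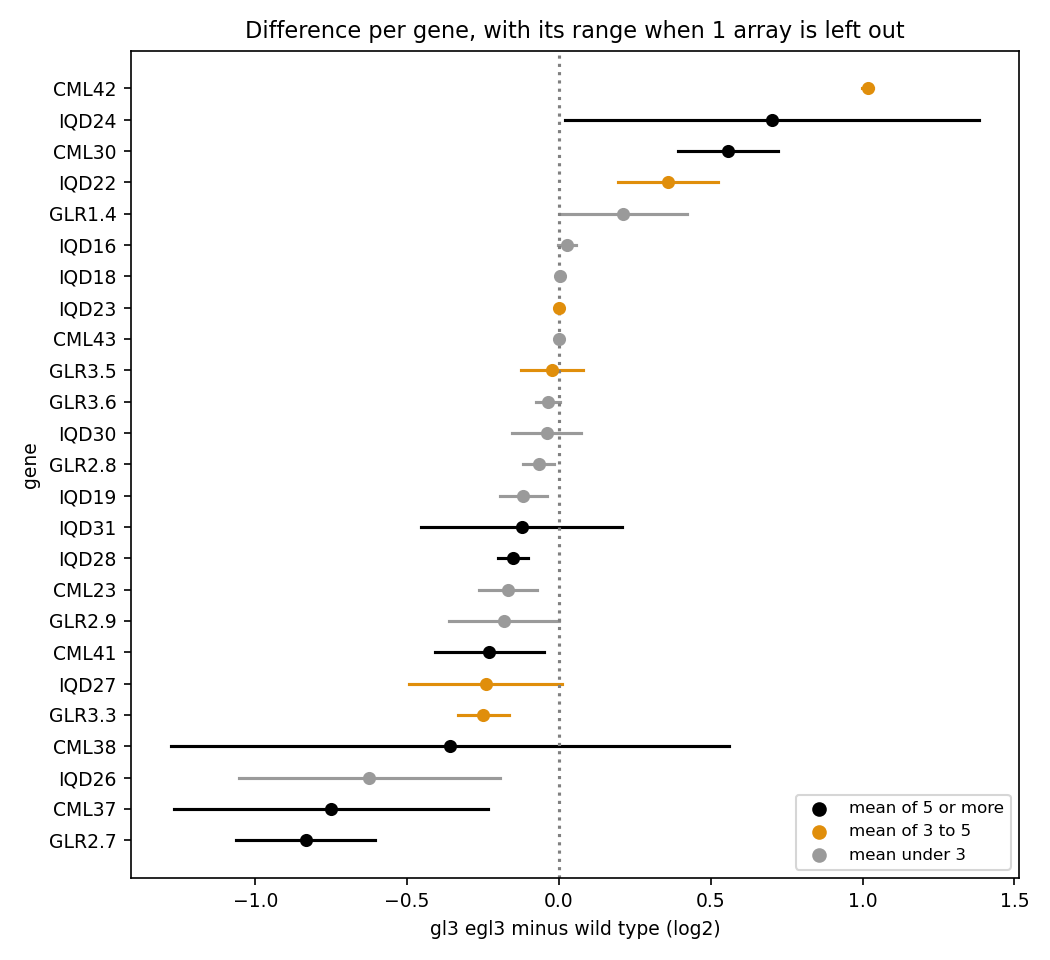
Difference between gl3 egl3 and wild type (log2) for each of the 25 genes (points), with the range of the difference when 1 of the 4 arrays is left out (lines), and colours for the mean level. The line of CML42 spans 1.00 to 1.04, while that of CML38 runs from -1.28 to 0.56.

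Across the members, wild type replicate 1 was the highest of the 4 arrays for 13 of 25 genes (52%), against 16.5% of all genes, of which 52.5% had their lowest value on that array. Among the 8 members with a mean of 5 or more it was highest for 4, against 19.9% of genes at that level. Of the genes at that level, 32.3% had their lowest value on that array. The members concerned included GLR2.7, GLR2.8, GLR2.9, GLR3.3, CML37, CML41, IQD26, IQD27 and IQD31. At the other end, gl3 egl3 replicate 1 was the lowest array for 4 of the 8 brighter members, against 18.2% of genes at that level. These are counts over genes of the same 4 samples, which are not independent of one another.

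**Figure D4:**
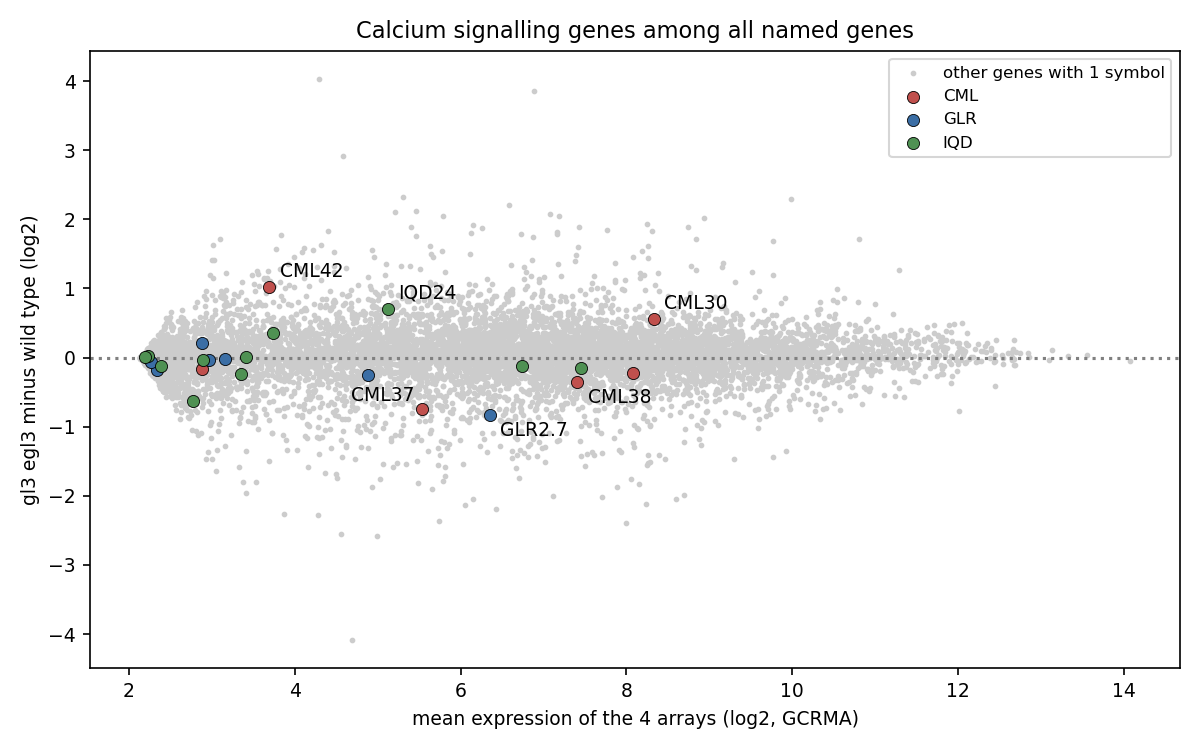
Difference between gl3 egl3 and wild type (log2) against the mean of the 4 arrays (log2, GCRMA) for 13355 genes (grey), with the CML, GLR and IQD genes in colour. CML42 stands at 1.02 at a mean of 3.69 and GLR2.7 at -0.83 at a mean of 6.35, and most coloured points lie within the grey cloud of genes at their level.

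Other genes of calcium signalling were listed by function, 49 in all, and 10 of them were measured. None of the 10 rose at an unadjusted p under 0.01 and 1 fell, against 1.85% and 0.996% of all genes, with 4 means higher and 6 lower. The gene that fell was CAS (AT5G23060), which encodes a calcium-sensing protein of the thylakoid membrane. It was at 9.37 and 9.33 in gl3 egl3 and at 9.74 and 9.70 in wild type. The groups did not overlap, and the difference was -0.37 (SE 0.03), with a limma adjusted p of 0.227. Its unadjusted limma p was 0.00171. It lay between 0.0154 and 0.0193 with any 1 array left out, at 0.0231 with an intensity trend and at 0.0437 with a filter at a mean of 5.

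Among channels, pumps and exchangers, NCL (AT1G53210), which encodes a sodium and calcium exchanger-like protein, was at 10.59 and 10.34 in gl3 egl3 and at 9.80 and 9.95 in wild type. Its groups did not overlap, and the difference was 0.59 (SE 0.13), with an unadjusted p of 0.0244 and a limma adjusted p of 0.424. CSC1, which encodes a calcium-permeable channel opened by osmotic stress, differed by 0.25 (SE 0.16), or by 0.089 to 0.41 with 1 array left out. The calcium-binding chaperone genes CRT1B and CNX2 differed by -0.43 (SE 0.21) and 0.03 (SE 0.07), and the value of CRT1B lay between -0.65 and -0.22 with 1 array left out. The calmodulin-binding transcription activator genes CAMTA4, CAMTA5 and CAMTA6 differed by 0.12 (SE 0.30), -0.31 (SE 0.27) and -0.29 (SE 0.23), each with overlapping groups. The differences of CAMTA4 and CAMTA5 rested on single arrays. CAMTA4 differed by 0.46 with wild type replicate 2 left out and by -0.22 with replicate 1 left out. CAMTA5 differed by -0.62 with wild type replicate 1 left out and by 0.0031 with replicate 2 left out. The difference of CAMTA6 ranged from -0.49 to -0.095 with 1 array left out. All 8 annexins and all 9 listed targets of calcium-dependent kinases were not analysed here.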

How the data were processed

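RNA of tissue labelled as green was amplified, biotin-labelled and hybridised to 4 ATH1 arrays. The authors ran GCRMA through AffylmGUI, and the resulting log2 expression values, 1 per probe set, were used as deposited. The GCRMA version is not given in the sources used here, and depth does not apply to arrays, so the number of arrays limits the precision. After removal of 64 controls from the 22810 probe sets, 22746 were tested. The platform annotation gave 13513 of them 1 symbol, 503 several and 8730 none. Unnamed probe sets may read genes that are called not analysed. RefSeq (TAIR10.1) gave the locus of all 25 members and symbols for probe sets listed by locus, and the study's list of trichome genes named further probe sets. No coordinates are printed.

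Values of wild type were subtracted from those of gl3 egl3 in a linear model (limma 3.58.1, R 4.3.3, lmFit and eBayes, two-sided), with p-values adjusted by the Benjamini-Hochberg method over all tested probe sets. Of the degrees of freedom, 2 were residual and 0.623 came from the prior. Intervals are at 95%. The fits were also run on simulated arrays with normal noise. Known changes were added there only at a mean of 5 or more, so that run cannot speak for dimmer genes such as CML42. The members and lists were chosen with earlier results of these data known. The rule for named genes took CML42, members with an unadjusted p under 0.01 and, per family, the largest differences in each direction at a mean of 5 or more and the highest mean. All 25 members are named nonetheless. Of the other genes, the named ones had an unadjusted p under 0.01, lay among the 2 with the largest difference of their list, or are given as measured members of a short list or as chosen after their values were seen. The alternatives were quantile normalization, centring on array medians, 16 added on the linear scale, a filter at a mean of 5, robust variances with an intensity trend, a replicate block, the methods' t-test, omission of each array, the mean over a gene's probe sets, omission of probe sets shared by several genes, and other thresholds.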

Additional observations from a re-analysis of the deposited data

How the results depend on the processing

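The count of probe sets at a limma adjusted p under 0.05 was 0 under each alternative run for it and 1 at an adjusted p under 0.1. It was not run on the mean over a gene's probe sets or without shared probe sets. The count of members higher in gl3 egl3 at an unadjusted p under 0.01 was 0 with the filter at a mean of 5, which leaves 8 members and removes CML42, and ranged from 1 to 2 with 1 array left out. The count lower ranged from 0 to 2. The median difference of members was -0.19 with the filter. The lone array of a group is assumed to vary like the other group. Some directions turned, and the cause was not tested. With 1 array left out, the difference ranged from -1.28 to 0.56 for CML38, -0.12 to 0.081 for GLR3.5, -0.49 to 0.011 for IQD27, -0.15 to 0.072 for IQD30, -0.45 to 0.21 for IQD31, -0.22 to 0.46 for CAMTA4, -0.049 to 0.11 for CNX2, -0.18 to 0.078 for ZWI and -0.30 to 0.082 for iqd32. With arrays centred on their medians it was -0.0058 for IQD16, -0.032 for CML43, -0.030 for IQD18, -0.031 for IQD23 and -0.0051 for CNX2. Of 258 alternative values of members, 19 had the opposite sign to the value reported, in 11 members, and 239 had the same sign. Some of the 19 are near 0, such as 0.0010 for GLR2.9 and 0.0020 for GLR3.6 with 1 array left out.

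Whether replicates of equal number belong together is not given in the labels. Deviations of same-numbered arrays correlated at 0.134 over all probe sets, across genes, which are not independent. With the replicate block, 0 probe sets passed the adjusted threshold, and 1 member was higher and 0 lower at an unadjusted p under 0.01.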
